A study of Vitis vinifera with 60 samples.

Results

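Of the 29287 gene rows measured in ripening grape berries, 8 are followed here, chosen by identifier as MADS-box transcription factor genes of the SEP, FUL and AG groups. The SEP group holds 3 of them, SEP1 (VIT_14s0083g01050), SEP2 (VIT_17s0000g05000) and SEP3 (VIT_01s0010g03900). The FUL group holds 2, FUL1 (VIT_17s0000g04990) and FUL2 (VIT_14s0083g01030). The AG group holds 3, AG1 (VIT_12s0142g00360), AG2 (VIT_10s0003g02070) and AGL11 (VIT_18s0041g01880). The symbols came with the list of identifiers. The deposited table carries no gene names, and a RefSeq gene table of the assembly ASM3070453v1 lists a grape gene under the name of 5 of the 8 (SEP1, SEP3, FUL2, AG1 and AGL11) but shares no identifier with the deposited table. All 8 had a row of their own, and all 8 reached 1 FPKM in at least 1 column.

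RNA came from the pericarp of Vitis vinifera berries, taken whole with the seeds removed, from 5 white-skinned Italian cultivars grown in 1 vineyard in the 2011 season: Garganega, Glera, Moscato bianco, Passerina and Vermentino. Each was sampled as pea-sized berries (Pea), as berries that begin to touch in the bunch (Touch), as soft berries (Soft) and as berries ripe for harvest (Harv), so that Pea and Touch are green stages and Soft and Harv ripening ones. With 5 cultivars and 4 stages there were 20 combinations, each with 3 libraries per the labels. The values used are the authors' mean FPKM of each combination, that is, fragments relative to transcript length and to all mapped fragments. A value ± SD below runs over the 5 cultivars at a stage, and the spread between libraries and the sequencing depth are unknown.

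MADS-box proteins bind DNA as dimers and higher complexes and are best known for specifying floral organs. SEP proteins, named for SEPALLATA of Arabidopsis, are partners that hold such complexes together, and in tomato a SEP-type gene, RIN, is needed for full fruit ripening. FUL genes, named for FRUITFULL, act in Arabidopsis in the growth of the fruit wall. AG genes, named for AGAMOUS, specify stamens and carpels in Arabidopsis, and AGL11 belongs to the branch that acts in ovules and seeds. AGL11 is also the gene linked to seedlessness in grape.

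The 8 genes differed in level by orders of magnitude. SEP3 was the highest of the 8 in all 20 columns, with a mean of 635 FPKM and a rank between 92 and 215 among all gene rows. AG2 followed with a mean of 252 FPKM over the columns and AG1 with 216 FPKM. SEP1 averaged 70.7 FPKM, FUL2 28.2 FPKM and AGL11 23.0 FPKM, while SEP2 averaged 1.07 FPKM and FUL1 1.05 FPKM. SEP3 stood above AG2, AG1 above SEP1, and AGL11 above SEP2 in 20 of 20 columns, and SEP1 above FUL2 in 19. The other neighbours in this order changed places: AG2 was above AG1 in 7 columns, FUL2 above AGL11 in 8 and SEP2 above FUL1 in 11. Of the 160 values of the 8 genes, 1 was listed at 0 (FUL1 in Vermentino at Harv). Fragments of close paralogs can be shared between them, so the low levels of SEP2 and FUL1 carry that uncertainty.

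**Figure D1:**
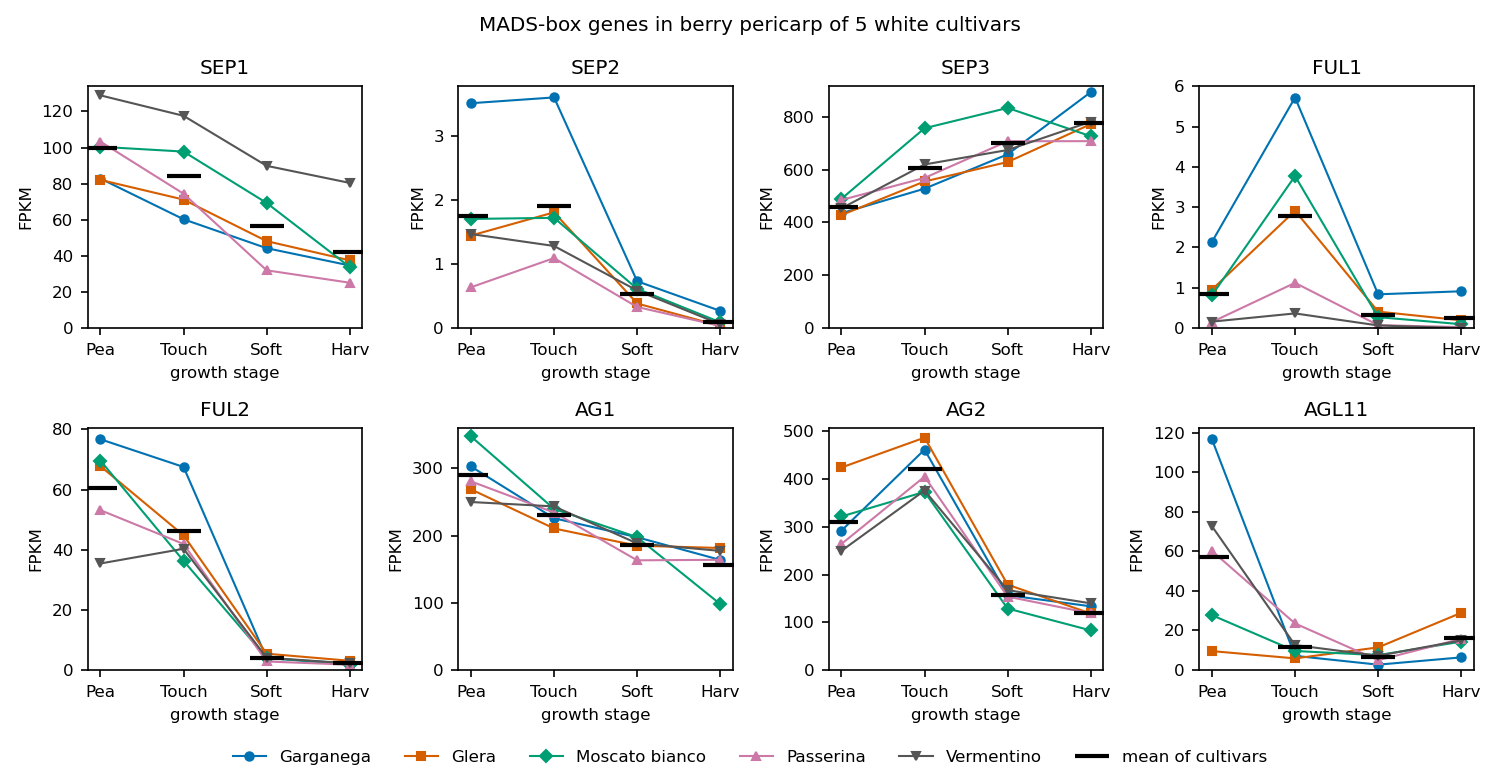
FPKM (linear axes from 0) of each gene at the 4 growth stages, with a line for each of the 5 cultivars and a black bar for their mean. SEP3 is higher at Harv than at Pea in every cultivar, FUL2 and AG2 are lower at Soft than at Touch in every cultivar, and AGL11 is spread widely at Pea, between 9.59 FPKM in Glera and 117 FPKM in Garganega.

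From green to ripening berries 7 of the 8 genes fell and SEP3 rose, although AG1 no longer fell when columns were scaled to equal medians. Ripening (Soft and Harv) was set against green (Pea and Touch) with limma on log2(FPKM + 1), with stage and cultivar as terms and the cultivar as replicate, and p-values adjusted by Benjamini-Hochberg over all 20833 genes tested. Past the adjusted p of 0.05, 7 of 8 were lower, against 57.9% of all genes, and 1 of 8 was higher, against 19.2%. With a change of at least 2-fold as well, which is what "called" means below, 4 of 8 were lower (SEP2, FUL2, AG2 and AGL11), against 21.3% of all genes. The median log2 change was -1.01 over the 8 genes, against -0.34 over all genes tested. FPKM are relative to the whole sample, so each change below stands beside that median shift. Columns scaled to equal medians gave 2 calls among the 8, FUL2 lower and SEP3 higher, and AG1 then turned in sign (a log2 change of 0.0015, against -0.61 unscaled) and AGL11 missed the adjusted p. Over all genes, the calls were 994 higher and 4431 lower unscaled, and 2245 higher and 2692 lower with equal medians. The median log2 change over all genes turned positive under that scaling, at 0.12, so the scaling shifted changes past the unscaled median. Since the identifiers carry no names, markers of cell types or of seed tissue were not analysed here. In whole pericarp, fewer cells of a type that uses a gene and less RNA of the gene per cell cannot be told apart.

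SEP3 was the rising member. At Pea it stood at 435 FPKM in Garganega, 428 in Glera, 489 in Moscato bianco, 485 in Passerina and 453 in Vermentino. At Touch the values were 528 FPKM in Garganega, 555 in Glera, 756 in Moscato bianco, 568 in Passerina and 619 in Vermentino. Every cultivar at Touch stood above every cultivar at Pea. Softening berries had SEP3 at 658 FPKM in Garganega, 629 in Glera, 833 in Moscato bianco, 707 in Passerina and 674 in Vermentino. At Harv it reached 893 FPKM in Garganega, 772 in Glera, 726 in Moscato bianco, 707 in Passerina and 781 in Vermentino. Levels at Touch, Soft and Harv overlapped between neighbouring stages, but every cultivar at Harv lay above every cultivar at Pea.

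The stage means of SEP3 were 458 ± 28.2 FPKM at Pea, 605 ± 90.8 at Touch, 700.1 ± 79.6 at Soft and 776 ± 72.3 at Harv (SD, n = 5 cultivars). Its log2 change in limma was 0.39 from Pea to Touch (SE 0.10, adjusted p = 0.00608), in the same direction in 5 of 5 cultivars. From Touch to Soft it was 0.21 (SE 0.10, adjusted p = 0.0678), higher in 5 of 5 cultivars by 0.12 to 0.32. The change between Soft and Harv was 0.15 (SE 0.10, adjusted p = 0.249), higher in 4 of 5. Neither of these steps passed the adjusted p. Over the whole course, Harv minus Pea, the log2 change was 0.76 (SE 0.10, adjusted p = 4.78e-06), and with equal medians it was 1.44 (adjusted p = 5.64e-09), past 2-fold. With columns scaled to equal medians the step from Touch to Soft was 0.75 (adjusted p = 1.84e-05) and that from Soft to Harv 0.26 (adjusted p = 0.0441), both past the threshold. The step from Touch to Soft also passed without Moscato bianco (adjusted p = 0.0461). Other alternatives went the other way, and over all of them the step from Touch to Soft ran from 0.03 to 0.75, with the lowest value under quantile normalization. Quantile normalization gave 0.20 from Soft to Harv (adjusted p = 0.0793), which missed, and 0.61 for Harv minus Pea (adjusted p = 1.02e-05).

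SEP1 fell. Pea-sized berries had 82.8 FPKM in Garganega, 82.1 in Glera, 100.4 in Moscato bianco, 103 in Passerina and 129 in Vermentino. At Touch the values were 60.3 FPKM in Garganega, 71.2 in Glera, 97.8 in Moscato bianco, 74.4 in Passerina and 118 in Vermentino. Neighbouring stages overlapped, and Vermentino stood above the other cultivars at each of them. Soft berries had 44.3 FPKM in Garganega, 48.2 in Glera, 69.3 in Moscato bianco, 32.0 in Passerina and 89.9 in Vermentino. At Harv SEP1 was at 34.7 FPKM in Garganega, 37.5 in Glera, 33.9 in Moscato bianco, 25.1 in Passerina and 80.4 in Vermentino. All Harv values lay below all Pea values, although Vermentino at Harv came close to the lowest cultivar at Pea. The means were 99.5 ± 19.1 FPKM at Pea, 84.3 ± 23.1 at Touch, 56.7 ± 22.9 at Soft and 42.3 ± 21.8 at Harv (SD, n = 5 cultivars), and SEP1 was lower at the later stage in 5 of 5 cultivars in each of the 3 transitions. The limma change was -0.26 from Pea to Touch (SE 0.16, adjusted p = 0.251), -0.61 from Touch to Soft (SE 0.16, adjusted p = 0.00498) and -0.44 from Soft to Harv (SE 0.16, adjusted p = 0.0484). Harv minus Pea gave -1.31 (SE 0.16, adjusted p = 3.99e-06).

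The single steps of SEP1 depended on the settings more than its whole course did. With equal medians, Touch to Soft was -0.08 (adjusted p = 0.715), with quantile normalization -0.37 (adjusted p = 0.056), and with the cultivar term dropped the p also missed (adjusted p = 0.0892). Soft to Harv missed in 11 of 16 alternatives, among them those that left out Garganega (adjusted p = 0.0992), Glera (0.119) or Moscato bianco (0.239), and the adjusted p ran from 0.0217 to 1. Harv minus Pea passed the adjusted p with equal medians, at -0.64 (adjusted p = 0.00261), but was then under 2-fold.

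SEP2, a close relative of SEP1, was a low gene that fell with ripening. Its values were 3.51 FPKM in Garganega, 1.44 in Glera, 1.70 in Moscato bianco, 0.636 in Passerina and 1.47 in Vermentino at Pea. Touching berries had 3.60 FPKM in Garganega, 1.80 in Glera, 1.72 in Moscato bianco, 1.09 in Passerina and 1.28 in Vermentino. The green stages overlapped, and the log2 change between them was 0.10 (SE 0.14, adjusted p = 0.651). At Soft SEP2 stood at 0.730 FPKM in Garganega, 0.383 in Glera, 0.613 in Moscato bianco, 0.329 in Passerina and 0.586 in Vermentino. By Harv the values were 0.268 FPKM in Garganega, 0.0329 in Glera, 0.0909 in Moscato bianco, 0.0331 in Passerina and 0.0603 in Vermentino. The Soft values lay below all Touch values and the Harv values below all Soft values.

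SEP2 fell by 0.87 on the log2(FPKM + 1) scale from Touch to Soft (SE 0.14, adjusted p = 0.000102, limma) and by 0.48 from Soft to Harv (SE 0.14, adjusted p = 0.0171). Because the gene is low, that scale understates its change, and on FPKM the mean at Harv, 0.0971 ± 0.0985, was 18.0-fold below that at Pea, 1.75 ± 1.06 (SD, n = 5 cultivars). Its step from Soft to Harv missed the adjusted p when Glera (0.064), Moscato bianco (0.0746) or Vermentino (0.0696) was left out. With the cultivar term dropped the adjusted p was 0.141, with a pseudocount of 5 FPKM it was 0.184, and over the alternatives it ran from 2.26e-05 to 1. Harv minus Pea was -1.25 (adjusted p = 1.35e-06), against -0.68 with quantile normalization (adjusted p = 7.32e-05).

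FUL2 showed the sharpest drop of the 8 at softening. Pea-sized berries had 76.7 FPKM in Garganega, 67.7 in Glera, 69.6 in Moscato bianco, 53.1 in Passerina and 35.4 in Vermentino. Touching berries had 67.5 FPKM in Garganega, 44.8 in Glera, 36.3 in Moscato bianco, 41.9 in Passerina and 40.3 in Vermentino. The green stages overlapped, with Vermentino alone higher at Touch than at Pea. At Soft the values were 3.99 FPKM in Garganega, 5.44 in Glera, 4.06 in Moscato bianco, 2.86 in Passerina and 4.12 in Vermentino. At Harv they were 2.15 FPKM in Garganega, 3.09 in Glera, 1.81 in Moscato bianco, 1.80 in Passerina and 2.22 in Vermentino. Every ripening value lay far below every green value, and the 2 ripening stages overlapped.

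FUL2 thus fell to 4.09 ± 0.918 FPKM at Soft, against 46.2 ± 12.3 FPKM at Touch (SD, n = 5 cultivars), an 11.3-fold lower mean. Its log2 change there was -3.20 (SE 0.17, adjusted p = 3.48e-09, limma), lower in 5 of 5 cultivars, and over the alternatives it ran from -3.46 to -2.47 with adjusted p between 1.46e-09 and 0.000167. From Soft to Harv FUL2 fell by 0.66 (SE 0.17, adjusted p = 0.00677), again in 5 of 5 cultivars, and that step missed with a pseudocount of 5 FPKM (adjusted p = 0.0937). From Pea to Touch the change was -0.37 (SE 0.17, adjusted p = 0.106), and without Vermentino it was -0.51 (adjusted p = 0.0345).

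FUL1, its low paralog, rose before it fell. Its values at Pea were 2.14 FPKM in Garganega, 0.954 in Glera, 0.815 in Moscato bianco, 0.151 in Passerina and 0.160 in Vermentino. At Touch they were 5.72 FPKM in Garganega, 2.91 in Glera, 3.77 in Moscato bianco, 1.12 in Passerina and 0.364 in Vermentino. Each cultivar was higher at Touch than at Pea, though the cultivars were so far apart that the stages overlapped. Soft berries had FUL1 at 0.838 FPKM in Garganega, 0.408 in Glera, 0.271 in Moscato bianco, 0.0725 in Passerina and 0.0649 in Vermentino. By Harv it was at 0.913 FPKM in Garganega, 0.194 in Glera, 0.0963 in Moscato bianco and 0.0244 in Passerina, and it was listed at 0 in Vermentino.

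The log2 change of FUL1 in limma was 0.92 from Pea to Touch (SE 0.19, adjusted p = 0.00218) and -1.32 from Touch to Soft (SE 0.19, adjusted p = 4.32e-05), each in the same direction in 5 of 5 cultivars. From Soft to Harv it was -0.11 (SE 0.19, adjusted p = 0.718). With the cultivar term dropped, the rise to Touch missed the threshold (adjusted p = 0.086). FUL1 is low, so the log2(FPKM + 1) scale understates its changes. On FPKM the rise to Touch was 2.27 to 7.45-fold by cultivar, and with a pseudocount of 0.1 FPKM its log2 change was 1.62 (adjusted p = 0.000371). Harv minus Pea was -0.51 (SE 0.19, adjusted p = 0.0287), and it missed when Garganega (adjusted p = 0.0877), Glera (0.11) or Moscato bianco (0.0739) was left out. It also missed with equal medians (-0.34, adjusted p = 0.087), with a pseudocount of 5 FPKM (-0.15, adjusted p = 0.16) and with the cultivar term dropped (adjusted p = 0.236), and with quantile normalization it was -0.0286 (adjusted p = 0.875). With a pseudocount of 0.1 FPKM Harv minus Pea was -1.52 (adjusted p = 0.00011). On FPKM FUL1 was lower at Harv than at Pea in 5 of 5 cultivars, with a 3.44-fold lower mean. FUL2 stood above FUL1 in every column with a value, by 9.62 to 111-fold at Touch and by 4.76 to 63.4-fold at Soft. Between Touch and Soft the FPKM of FUL1 fell to between 0.0646 and 0.178 of the Touch value in the same cultivar, and that of FUL2 to between 0.0591 and 0.122, so the ranges of the paralogs overlapped.

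AG2 was highest in touching green berries. Pea-sized berries had 292 FPKM in Garganega, 424 in Glera, 322 in Moscato bianco, 264 in Passerina and 249.8 in Vermentino. Touching berries had 462 FPKM in Garganega, 487 in Glera, 373 in Moscato bianco, 405 in Passerina and 376 in Vermentino. Each cultivar was higher at Touch, while Glera at Pea reached into the Touch range. At Soft the values were 157 FPKM in Garganega, 179 in Glera, 129 in Moscato bianco, 154 in Passerina and 167 in Vermentino. At Harv they were 134 FPKM in Garganega, 119 in Glera, 83.1 in Moscato bianco, 119 in Passerina and 139.8 in Vermentino. All Soft values lay below all Touch values, with no overlap.

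AG2 averaged 421 ± 51.3 FPKM at Touch and 310.5 ± 69.4 FPKM at Pea (SD, n = 5 cultivars), a difference of 0.45 on the log2 scale (SE 0.13, adjusted p = 0.0135, limma). That rise missed the threshold without Garganega (adjusted p = 0.068) and without Passerina (adjusted p = 0.0706). AG2 fell to 157 ± 18.6 FPKM at Soft, against 421 ± 51.3 FPKM at Touch, and the limma log2 change was -1.41 (SE 0.13, adjusted p = 4.67e-07). With equal medians that fall was -0.88 (adjusted p = 4.85e-05), still past the adjusted p but under 2-fold. From Soft to Harv AG2 fell by 0.41 (SE 0.13, adjusted p = 0.0204) in 5 of 5 cultivars. This last step missed when Glera (adjusted p = 0.0781), Moscato bianco (0.0541) or Passerina (0.0518) was left out, and with equal medians (0.0713). Harv minus Pea was -1.37 (adjusted p = 1.67e-07), and with equal medians it was -0.70 (adjusted p = 0.000154), under 2-fold.

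AG1 was lower at each later stage on average. It stood at 303 FPKM in Garganega, 269 in Glera, 347 in Moscato bianco, 281 in Passerina and 249.8 in Vermentino at Pea. Touching berries had 226 FPKM in Garganega, 211 in Glera, 239.6 in Moscato bianco, 234 in Passerina and 243 in Vermentino. Soft berries had 197 FPKM in Garganega, 185 in Glera, 197 in Moscato bianco, 163 in Passerina and 188 in Vermentino. Each of these stages lay below the one before with no overlap of the cultivars. At Harv AG1 was at 164 FPKM in Garganega, 181 in Glera, 98.1 in Moscato bianco, 164 in Passerina and 177 in Vermentino, which overlaps the Soft values.

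None of the 3 steps of AG1 passed the adjusted p in limma: -0.32 from Pea to Touch (SE 0.15, adjusted p = 0.109), -0.31 from Touch to Soft (SE 0.15, adjusted p = 0.0823) and -0.28 from Soft to Harv (SE 0.15, adjusted p = 0.16). The low Harv value of Moscato bianco enters the spread of all steps. Without Moscato bianco, the first step was -0.27 (adjusted p = 0.0375), the second -0.32 (adjusted p = 0.00817) and the last -0.0941 (adjusted p = 0.453), so the size of the last step rests on that cultivar. Harv minus Pea was -0.90 (SE 0.15, adjusted p = 5.28e-05), lower in 5 of 5 cultivars. The step from Touch to Soft was as large as the median shift of all genes, -0.31, and with equal medians it was 0.23 (adjusted p = 0.194). With equal medians Harv minus Pea was -0.23 (adjusted p = 0.16) and ripening minus green was 0.0015 (adjusted p = 0.99), so AG1 did not pass under that scaling. Under quantile normalization Harv minus Pea was -0.74 (adjusted p = 0.000171), and with scaling that left out the 100 most abundant genes it was -0.66 (adjusted p = 0.00046), both past the threshold. Ripening minus green also passed under these, at -0.47 (adjusted p = 0.00043) and -0.39 (adjusted p = 0.00199) in that order.

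AGL11 had the widest spread of cultivars at Pea on the log2(FPKM + 1) scale. Its values there were 117 FPKM in Garganega, 9.59 in Glera, 27.7 in Moscato bianco, 60.2 in Passerina and 72.7 in Vermentino. At Touch they were 7.19 FPKM in Garganega, 5.90 in Glera, 9.65 in Moscato bianco, 23.6 in Passerina and 12.6 in Vermentino. Garganega, the highest at Pea, was thus the second lowest at Touch. At Soft the values were 2.74 FPKM in Garganega, 11.5 in Glera, 7.54 in Moscato bianco, 4.98 in Passerina and 7.25 in Vermentino. At Harv they were 6.41 FPKM in Garganega, 28.9 in Glera, 14.4 in Moscato bianco, 15.8 in Passerina and 15.0 in Vermentino. Glera, the lowest at Pea and Touch, was the highest at Soft and Harv, and Garganega was the lowest at both.

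AGL11 averaged 11.8 ± 7.06 FPKM at Touch, against 57.4 ± 41.6 FPKM at Pea (SD, n = 5 cultivars), and was lower at Touch in 5 of 5 cultivars. The log2 change was -1.93 (SE 0.57, adjusted p = 0.0175, limma), between -3.84 in Garganega and -0.62 in Glera. It missed the threshold without Garganega (-1.45, adjusted p = 0.0649) and without Vermentino (-1.80, adjusted p = 0.0841), and over the alternatives the adjusted p ran from 0.00282 to 1. From Touch to Soft the change was -0.67 (SE 0.57, adjusted p = 0.326), lower in 4 of 5 cultivars and higher in Glera.

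From Soft to Harv AGL11 was higher in 5 of 5 cultivars, by 1.91 to 3.17-fold on FPKM, while AG2 was lower in 5 of 5. The log2 change was 1.11 (SE 0.57), and the adjusted p was 0.147 with all stages in 1 fit and 0.00696 with the Soft and Harv columns alone. Harv minus Pea was -1.49 (SE 0.57, adjusted p = 0.0281), lower in 4 of 5 cultivars and higher in Glera. It missed the threshold when Garganega (adjusted p = 0.17), Moscato bianco (0.0543), Passerina (0.0835) or Vermentino (0.115) was left out, with equal medians (0.186), with quantile normalization (0.0994), with scaling that left out the 100 most abundant genes (0.0596) and with the Pea and Harv columns alone (0.110). Its size ran between -0.87 without Garganega and -2.24 without Glera (adjusted p = 0.000639). Ripening minus green was -1.08 (SE 0.40, adjusted p = 0.0239), and it missed when Garganega (adjusted p = 0.112), Passerina (0.121) or Vermentino (0.0922) was left out, with equal medians (-0.52, adjusted p = 0.247), with quantile normalization (-0.63, adjusted p = 0.176) and with scaling that left out the 100 most abundant genes (-0.88, adjusted p = 0.0624). It was -0.71 without Garganega and -1.65 without Glera (adjusted p = 0.000436).

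Counted by transition, the calls of the 8 genes lay mostly at softening, as did those of all genes. Over all genes 3918 were called from Touch to Soft, against 1648 from Pea to Touch and 1501 from Soft to Harv. From Pea to Touch, 1 of 8 was called lower (AGL11), against 5.77% of all genes, and past the adjusted p 3 were higher (SEP3, FUL1 and AG2), against 16.7%, and 1 was lower, against 16.1%. From Touch to Soft, 3 of 8 were called lower (FUL1, FUL2 and AG2), against 15.2% of all genes, and past the adjusted p 5 were lower (SEP1 and SEP2 as well), against 50.3%, and 0 were higher, against 9.71%. SEP3 was the gene nearest to passing on the higher side there, with an unadjusted p of 0.0424. From Soft to Harv limma called 0 of 8, against 7.20% of all genes, also at an unadjusted p under 0.05. Past the adjusted p, 4 were lower there (SEP1, SEP2, FUL2 and AG2), against 19.6% of all genes, and 0 were higher, against 16.7%. From Pea to Harv, 5 of 8 were called lower (SEP1, SEP2, FUL2, AG2 and AGL11), against 27.0%. With equal medians SEP1, AG2 and AGL11 were no longer called there, and SEP3 was called higher. The median log2 change over all genes from Pea to Harv was -0.34 unscaled and 0.17 with equal medians. Unscaled, 7 were lower past the adjusted p, against 51.7%, and 1 was higher (SEP3), against 22.4%. The median log2 change of the 8 genes from Touch to Soft was -0.77, against -0.31 for all genes.

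**Figure D2:**
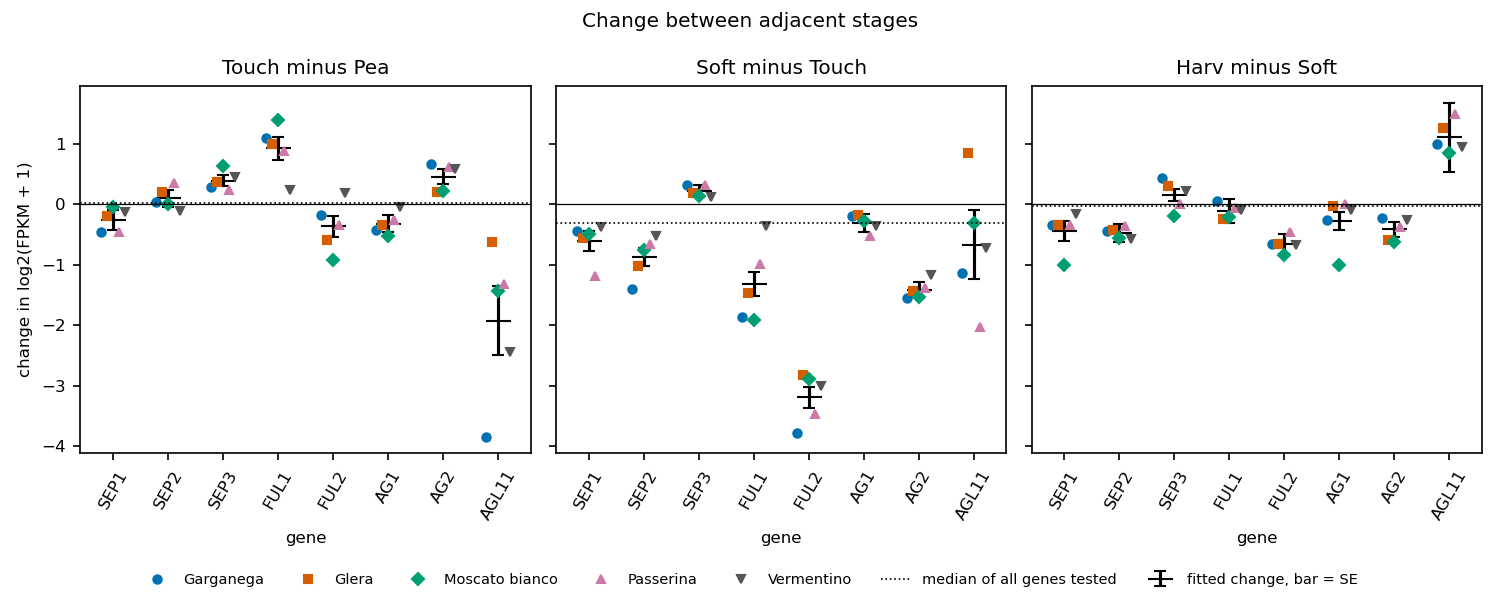
Change in log2(FPKM + 1) between adjacent stages for each gene, with a symbol per cultivar, a black bar with SE for the limma estimate and a dotted line at the median of all genes tested. FUL2 lies at -3.20 from Touch to Soft, SEP3 stays above the dotted line in each step except in Moscato bianco from Soft to Harv, and AGL11 has the widest spread from Pea to Touch and from Touch to Soft.

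SEP3 made up a growing part of the summed level of the 8 genes along the stages. The summed FPKM of the 8 genes was 1278 ± 63.4 at Pea, 1404 ± 68.4 at Touch, 1112 ± 78.4 at Soft and 1113 ± 115 at Harv (SD, n = 5 cultivars). SEP3 held 35.9% ± 2.62 of that sum at Pea, 43.0% ± 4.27 at Touch, 62.9% ± 3.71 at Soft and 69.9% ± 4.16 at Harv. The lowest share of SEP3 at Soft, 59.4%, stood above the highest at Touch, 49.8%. AG1 held 14.0% ± 2.37 at Harv and 22.6% ± 1.90 at Pea. AG2 held 10.6% ± 1.21 at Harv and 24.2% ± 5.06 at Pea, and FUL2 held 0.199% ± 0.0409 at Harv and 4.70% ± 1.12 at Pea. These shares are a description and have no test.

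**Figure D3:**
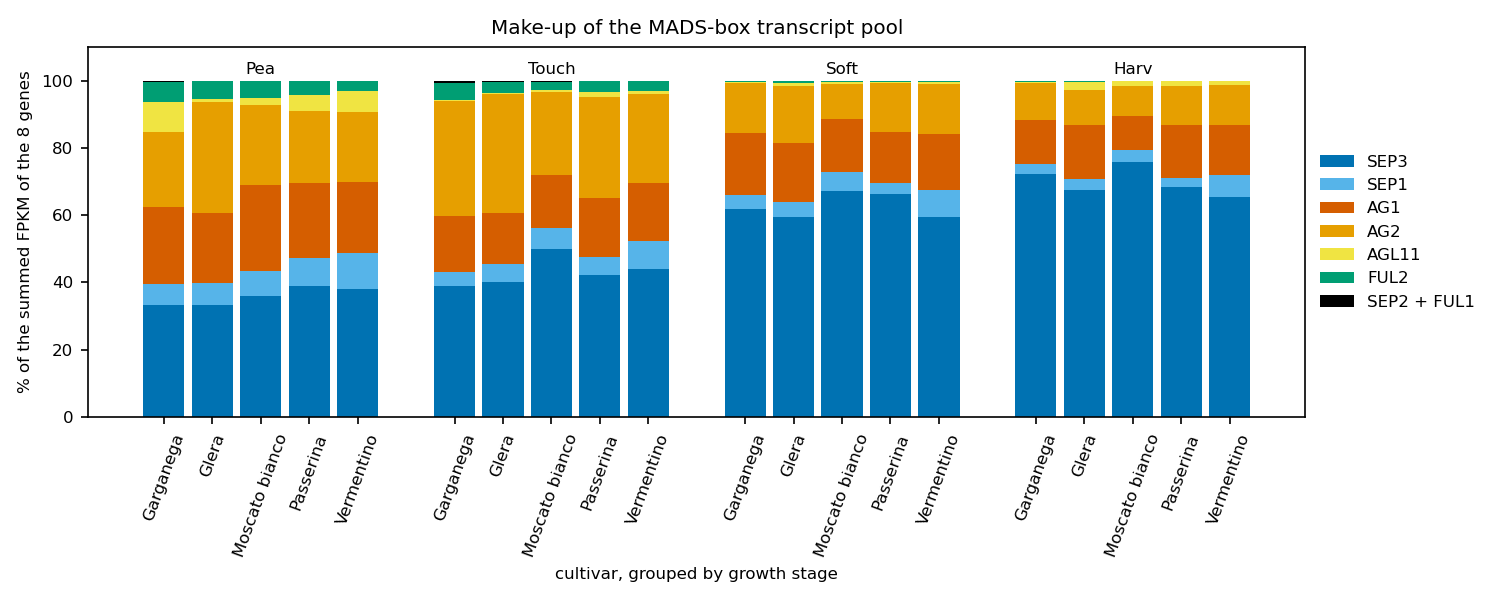
Share of each gene in the summed FPKM of the 8 genes (percent, stacked bars) in each cultivar, grouped by growth stage. The share of SEP3 lies between 65.3% and 75.8% at Harv and between 33.2% and 38.9% at Pea.

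Ratios between related genes were compared within each cultivar, since FPKM are scaled by length. AG1 and AG2 were at similar levels at Pea, with an AG1/AG2 ratio of 0.633 to 1.08. The ratio was 0.432 to 0.647 at Touch, 1.03 to 1.53 at Soft and 1.18 to 1.53 at Harv. AG2 was the higher gene in 5 of 5 cultivars at Touch and AG1 in 5 of 5 at Soft and at Harv. The log2 ratio (with 1 FPKM added to each) changed by a mean of -0.78 between Pea and Touch and by 1.11 between Touch and Soft, each in the same direction in 5 of 5 cultivars. With 5 cultivars, an exact two-sided sign-flip permutation test cannot give a p below 0.0625, which both changes reached (adjusted p = 0.0977 over 25 such tests, 5 ratios in 5 comparisons). Of these 25 changes, 16 had the same sign in every cultivar on the scale with 1 FPKM added, among them all 5 of FUL1/FUL2. Without the added FPKM, the FUL1/FUL2 ratio was lower at Soft than at Touch in Moscato bianco (0.0668 at Soft, against 0.104 at Touch) and in Passerina (0.0254 at Soft, against 0.0268 at Touch). It was also lower at Harv than at Soft in Glera (0.0625 at Harv, against 0.0750 at Soft), Moscato bianco (0.0531 at Harv) and Passerina (0.0136 at Harv), and FUL1 was listed at 0 in Vermentino at Harv, so the uniform sign of that ratio depends on the added amount.

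SEP1 and FUL2 lie next to each other in the RefSeq table, on chromosome 14 with 0 genes listed between them. The identifiers of SEP2 and FUL1 follow each other as well. The libraries were not stranded, so where neighbouring genes overlap their fragments could not be separated. SEP1 gained on FUL2 at softening in every cultivar. The SEP1/FUL2 ratio of FPKM was 1.08 to 3.64 at Pea, 0.893 to 2.92 at Touch, 8.85 to 21.8 at Soft and 12.1 to 36.2 at Harv. The log2 ratio was higher at Soft than at Touch by 2.58 ± 0.447 (SD, n = 5 cultivars; exact two-sided sign-flip permutation p = 0.0625, the smallest possible, adjusted p = 0.0977). SEP1 also stood above its paralog SEP2 in every column, with ratios of 23.6 to 162 at Pea, 16.8 to 91.9 at Touch, 60.6 to 153 at Soft and 129 to 1333 at Harv. Averaged over the cultivars, the log2 SEP1/SEP2 ratio was lower at Touch than at Pea whichever amount was added before taking logs. Its mean change was -0.35 with 1 FPKM, -0.43 with 0.1 FPKM and -0.28 with 5 FPKM. Without an added amount the ratio was lower at Touch in every cultivar but Vermentino (91.9 at Touch, against 87.9 at Pea). In the other 4 comparisons the direction of the log2 change turned with the amount added. SEP2 is low, so that amount weighs on the ratio. Without an added amount the ratio was higher at Soft than at Touch, and at Harv than at Soft, in every cultivar. Its median was 56.9 at Touch, 113 at Soft and 759 at Harv.

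**Figure D4:**
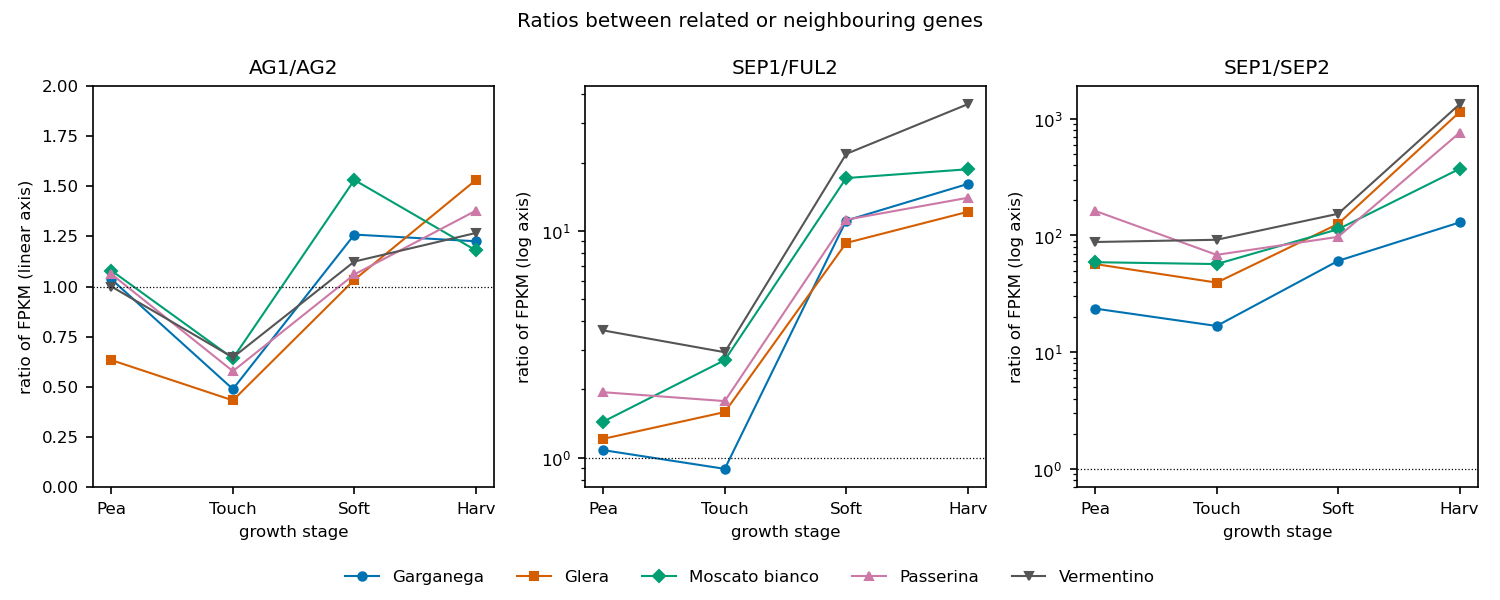
Ratio of FPKM between AG1 and AG2 (linear axis from 0), SEP1 and FUL2, and SEP1 and SEP2 (log axes) at the 4 growth stages, with a line for each cultivar and a dotted line at 1. The AG1/AG2 ratio lies below 1 at Touch and above 1 at Soft and Harv in all 5 cultivars, and the SEP1/FUL2 ratio is at least 8.85 at Soft.

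The genes around the 8, taken by identifier up to 5 steps away on either side, numbered 56, of which 46 could be tested. From Touch to Soft 9 of these were called lower and 0 higher. The share called lower, 19.6%, lay near the 15.2% of all genes. The row next to FUL2 on the side away from SEP1 stood between 3.18 and 12.1 FPKM in ripening berries and between 6.27 and 14.2 FPKM in green ones, with a log2 change of -0.34 from Touch to Soft (adjusted p = 0.152). The row next to SEP1 on its far side stayed under 0.05 FPKM in all columns. The row beside SEP2 on the side away from FUL1 had a log2 change of -0.58 (adjusted p = 0.000297), and the row beside FUL1 on its far side stayed at or under 0.300 FPKM.

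Cultivars differed in 3 genes, SEP1, SEP2 and FUL1, and not detectably in the other 5. In a moderated F test of the cultivar term (limma, all stages together), 3 of 8 passed the adjusted p, against 45.7% of all genes, and 2 of 8 also had at least 2-fold between the highest and the lowest cultivar, against 15.8%. These were FUL1, with a range of 1.36 on the log2(FPKM + 1) scale (adjusted p = 0.00112), and SEP1, with a range of 1.02 (adjusted p = 0.00236). SEP2 passed with a range of 0.82 (adjusted p = 0.00853). The adjusted p was 0.112 for FUL2, 0.131 for AG2, 0.352 for SEP3, 0.786 for AGL11 and 0.968 for AG1. For AGL11 this test compares levels averaged over the stages, and its cultivars changed order between stages. The range of SEP1 was under 2-fold without Soft, without Harv and with quantile normalization. With a pseudocount of 5 FPKM neither SEP1 nor FUL1 reached 2-fold, and SEP2 missed the adjusted p without Pea (0.107) and without Touch (0.112). SEP3 passed without Harv (adjusted p = 0.0448), and AG2 with quantile normalization (0.0484).

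Vermentino had the highest SEP1 at all 4 stages, between 80.4 and 129 FPKM. Set against the mean of the other 4 cultivars, Vermentino was higher by 0.84 (SE 0.15, adjusted p = 0.000974, limma). Garganega had the highest SEP2 and the highest FUL1 at all 4 stages, with differences of 0.60 (SE 0.13, adjusted p = 0.00393) and 0.96 (SE 0.17, adjusted p = 0.00127). FUL1 was lower in Vermentino by 0.74 (SE 0.17, adjusted p = 0.00741) and in Passerina by 0.53 (SE 0.17, adjusted p = 0.0445), and SEP2 was lower in Passerina by 0.43 (SE 0.13, adjusted p = 0.0292). All 6 differences were under 2-fold on this scale. SEP2 and FUL1 are low, so the scale understates their differences. With a pseudocount of 0.1 FPKM the difference of FUL1 was 2.11 in Garganega, -1.83 in Vermentino and -1.29 in Passerina. That of SEP2 was then 1.13 in Garganega and -0.85 in Passerina, and that of SEP1 in Vermentino 0.85. With 1 FPKM added, the difference of SEP2 in Garganega missed the threshold without Touch (adjusted p = 0.0737). That in Passerina missed without Pea (0.220), without Touch (0.139) and without Soft (0.0657). For FUL1, the difference in Vermentino was -0.47 without Touch (adjusted p = 0.0359) and missed without Pea (adjusted p = 0.0548), and that in Passerina without Pea (0.233), without Soft (0.105) and without Harv (0.0689).

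By cultivar, past the adjusted p were 2 of 8 genes in Garganega (19.7% of all genes), 2 in Passerina (17.7%) and 2 in Vermentino (19.2%). Limma found 0 of 8 in Glera (17.4% of all genes; 1 gene at an unadjusted p under 0.05, AG2) and 0 in Moscato bianco (22.0%; 2 genes at an unadjusted p under 0.05, SEP3 and AG2). The shares of the 8 genes lay near or under those of all genes.

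The genes whose course was most like the highest gene of each group were taken by Pearson correlation of log2(FPKM + 1) over the 20 columns, among 10497 other genes with a mean of at least 10 FPKM. The columns share stages and cultivars, so the values are descriptions. For SEP3 the gene was VIT_06s0004g02980 (r = 0.95), at 44.4 to 71.2 FPKM in ripening berries and 24.5 to 47.1 FPKM in green ones. For AG2 it was VIT_03s0038g04470 (r = 0.98), at 89.7 to 142 FPKM in ripening and 185 to 363 FPKM in green berries. For FUL2 it was VIT_11s0016g00190 (r = 0.99), at 1.90 to 6.64 FPKM in ripening and 21.9 to 35.7 FPKM in green berries. The files do not pair these identifiers with names. A correlation of at least 0.9 was found with 1230 genes for FUL2, 501 for AG2, 41 for SEP2, 37 for SEP3, 27 for AG1, 16 for SEP1, 1 for FUL1 and 0 for AGL11, whose nearest gene reached 0.83. This limit was set after the correlations were seen.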

How the data were processed

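The FPKM are those the authors deposited, 1 mean per cultivar and stage per the file header. The submitters' processing notes name TopHat2 2.0.6 and Cufflinks 2.0.2; the role of each, the build, the annotation and how means were formed are not stated in the labels or headers. Each of the 20 columns carried the name of 1 group. The members and lists were chosen with earlier results of these data known. All 8 members are named; genes of like course were named by the highest correlation with the highest member of each group. Genes whose highest column reached 1 FPKM (20833) were taken as log2(FPKM + 1) and fitted in limma 3.58.1 (R 4.3.3, trend) with stage and cultivar as terms, leaving 12 residual degrees of freedom. The cultivar is the replicate and the same 5 stand at every stage, so p-values measure how unevenly cultivars changed, not the spread between libraries. The fit was tested on simulated data. No interaction between both terms was tested, as each combination has 1 value. Alternatives were other pseudocounts, filters, scalings, priors and fold limits, and leaving out cultivars or stages. Depth is unknown, and means of FPKM give no whole reads, so no counting interval is given. Sequences were not used here.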

Additional observations from a re-analysis of the deposited data

Results flagged for a closer look

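The 5 cultivars at each stage and in each transition were searched for a value far from the other 4, in 56 sets over the 8 genes. Such a value was found in 6 sets. Chance would give about 2.8 if the sets were independent. The levels and changes of a gene share values, so an excess over chance is not shown. Moscato bianco was far below at Harv for AG1, with 98.1 FPKM, against 164 to 181 FPKM in the other cultivars. Its log2 change from Soft to Harv was -1.002 for AG1, against -0.27 to 0.01 in the others, and -1.01 for SEP1, against -0.35 to -0.16. Passerina had the steepest step of SEP1 from Touch to Soft, with a log2 change of -1.19, against -0.55 to -0.38 in the others. Garganega stood apart at Harv for 2 low genes. SEP2 was at 0.268 FPKM there, against 0.0329 to 0.0909 FPKM in the others, and FUL1 at 0.913 FPKM, against 0 to 0.194 FPKM. The causes were not tested.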

How the results depend on the processing

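Of the 8 genes, the counts that passed the adjusted p ("passed") or also 2-fold ("called") moved by over 1.5 times as follows, and the causes were not tested. From Pea to Touch, 1 gene was called, against 2 with a pseudocount of 0.1 FPKM, 0 in a test against 2-fold and 0 to 1 when a cultivar was left out; 4 passed, against 0 in the 2-fold test and 2 to 5 without a cultivar. From Touch to Soft 5 passed, against 2 in the 2-fold test. From Soft to Harv 0 were called, against 1 with a pseudocount of 0.1 FPKM and 1 with the columns of those stages alone; 4 passed, against 1 with a pseudocount of 5 FPKM, 2 with quantile normalization, 0 in the 2-fold test and 1 to 3 without a cultivar. From Pea to Harv 5 were called, all lower, against 3 with equal medians (SEP2 and FUL2 lower, SEP3 higher), 3 with quantile normalization and 2 in the 2-fold test; 8 passed, against 5 with equal medians and 2 in the 2-fold test. For ripening minus green 4 were called, against 2 with equal medians, 2 with scaling that left out the 100 most abundant genes, 2 with a pseudocount of 5 FPKM, 2 with quantile normalization, 2 in the 2-fold test and 2 to 5 without a cultivar; 8 passed, against 2 in the 2-fold test. AG1 reversed with equal medians, to 0.23 from Touch to Soft and 0.0015 for ripening minus green. A filter of 5 FPKM removed SEP2, so it gave no value there.

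The fit pairs the stages by cultivar, so the cultivar term is its replicate block. With no replicate block, 1 of 8 passed from Soft to Harv, against 4 with it. Over all 20833 genes tested, 4401 passed there without the block and 7555 with it. The library numbers could not be used as a block, since the columns are means over libraries.

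For cultivars 2 genes were called in the F test, against 0 with a pseudocount of 5 FPKM, 1 with quantile normalization, 1 without Harv and 1 without Soft. Of single cultivars against the other 4, 0 differences were called, against 4 with a pseudocount of 0.1 FPKM, 1 without Harv and 1 without Soft; 6 passed, against 3 with a filter of 5 FPKM and 0 in the 2-fold test.

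Changes in ratios that were small with 1 FPKM added reversed under other settings. SEP2 is low, so for SEP1/SEP2 the size and direction on this scale depend on the amount added. With no amount added, the SEP1/SEP2 ratio was highest at Harv in every cultivar. Its median was then 59.0 at Pea, 56.9 at Touch, 113 at Soft and 759 at Harv. With a pseudocount of 5 FPKM, the log2 SEP1/SEP2 change was -0.26 from Touch to Soft (0.26 with 1 FPKM), -0.29 from Soft to Harv (0.03) and -0.55 for ripening minus green (0.10), and SEP1/FUL2 changed by -0.0731 from Soft to Harv (0.22). With 0.1 FPKM, SEP1/SEP2 changed by 1.83 from Pea to Harv (-0.06). Leaving out a cultivar gave SEP1/SEP2 changes of -0.0618 to 0.156 from Soft to Harv, -0.22 to 0.26 from Pea to Harv and -0.0700 to 0.360 for ripening minus green, and a SEP1/FUL2 change of -0.0829 to 0.216 from Pea to Touch.

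Over all genes, 1648 were called at Touch against Pea, 3918 at Soft against Touch, 1501 at Harv against Soft, 7143 at Harv against Pea and 5425 for ripening against green. In that order, a pseudocount of 5 FPKM gave 780, 2109, 663, 4343 and 3043, and the 2-fold test 351, 1517, 167, 4558 and 3471. In the 2-fold test, passing and being called are the same. In the main fit 6847, 12507, 7555, 15426 and 16057 genes passed the adjusted p in that order. At Harv against Pea 16057 passed with equal medians. At Harv against Soft 6686 passed with 5 FPKM and 7983 with quantile normalization. With 0.1 FPKM, 2534 were called at Touch against Pea and 2804 at Harv against Soft. Equal medians gave 7442 calls at Harv against Pea and 4937 for ripening against green, and quantile normalization 6974 and 4614. Scaling that left out the 100 most abundant genes gave 4962 for ripening against green. When a cultivar was left out, 5137 to 6101 passed at Touch against Pea and 5203 to 7140 at Harv against Soft. For ripening against green 5329 to 5497 were then called. The F test called 3285 genes, against 5115 with 0.1 FPKM and 1318 with 5 FPKM. It called 3339 with quantile normalization, 3404 without Harv and 2626 without Soft. Values near or under 1 FPKM (SEP2, FUL1) are the least certain, as depth is unknown.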
